A study of Arabidopsis thaliana with 8 samples.

Results

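The baseline described here is the transcript signal of whole wildtype Arabidopsis thaliana seedlings, taken from the 4 wildtype arrays of a series of 8. The other arrays hold E2Fa-Dpa seedlings and were not used for any value below. Every probe set except the manufacturer's controls was kept, which left 22746 of 22810 probe sets and set aside 64 controls. A probe set is a group of short probes that together report 1 transcript, or several where their sequences are shared. The wildtype plants were of the Col-0 accession, with no transgene or agent named in the labels, and were raised on agar with Murashige and Skoog salts at 22 °C with 16 h of light and 8 h of dark. Entire plants, roots included, were collected on day 6 after germination, which was day 8 after sowing. No label says whether the 4 samples were grown or extracted separately, so spread and p-values concern these samples and may be technical. In RNA from a whole seedling, fewer cells of a type and less RNA per cell cannot be told apart.

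A seedling of this age has opened its cotyledons and lives by photosynthesis. Its chloroplasts carry a small genome of their own, which encodes core subunits of the photosystems, the cytochrome b6f complex, the ATP synthase and the plastid ribosome, while the antenna proteins and most enzymes of carbon fixation are encoded in the nucleus. Genes for seed stores, pollen and floral organs are known to work at other stages, and many members of large gene families are restricted to particular organs or to stress.

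The deposited values were intensities on a linear scale made with MAS5, a method that condenses the probes of a probe set into 1 signal and scales whole arrays. Signals were grouped into 4 bands by their mean over the 4 arrays: under 16, 16 to 100, 100 to 1000, and 1000 or more. Probe sets differ in how well their probes bind, so bands and ranks order signals and not numbers of transcripts. The bands held 7416, 8739, 6046 and 545 probe sets. Under the stricter rule that all 4 arrays had to meet the limit, 5853 probe sets (25.7%) stayed under 16 and are called near background, and 384 stayed at 1000 or more. The same band was kept on every array by 73.4% of probe sets. Replicates 1 to 4 had median signals of 40.2, 41.4, 37.9 and 39.5, and 31.4%, 30.3%, 35.4% and 34.0% of their probe sets lay under 16. Replicates 1 and 2 therefore held fewer dim probe sets than replicates 3 and 4.

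Genes were named from the platform annotation. It gives 1 gene for 13513 probe sets, several genes for 503 and, as used here, none for 8730, which stay unnamed. The named probe sets stand for 13350 genes, and a gene with several probe sets was represented by its brightest. Of these genes 38.1% had a mean under 16, 38.2% lay from 16 to 100, 22.2% from 100 to 1000 and 1.45% at 1000 or more, with a median of 30.6.

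What lies near background can be read from probe sets most of which should report little RNA. The annotation holds 989 pseudogenes, sequences like genes that are not held to encode a protein, each with a probe set of its own. Among them are 66 typed as transcribed, of which 74.2% were near background. Over all 989 the median mean signal was 2.89, 96.3% had a mean under 16, 87.7% were near background and none reached 100. The brightest were AT1G35612, with 79.1, 80.9, 89.1 and 75.2 on replicates 1 to 4 (mean 81.1 ± 5.84, SD, n = 4), AT4G08220 at 79.8 ± 15.2 and AT1G80020 at 77.5 ± 13.9. These 3 were chosen as the brightest, so their level against the rest of their class follows from that choice. Their SDs were 7.20%, 19.1% and 18.0% of the mean, beside a median of 22.8% over all probe sets with means from 16 to 100. Protein-coding genes gave a median of 36.7 over 12443 probe sets, with 33.4% under 16. Probe sets for Bacillus RNAs, which a plant does not make, read between 0.178 and 13.7 on replicates 1 and 2, all below 16. On replicates 3 and 4 the same controls reached 135, as described further below.

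**Figure D1:**
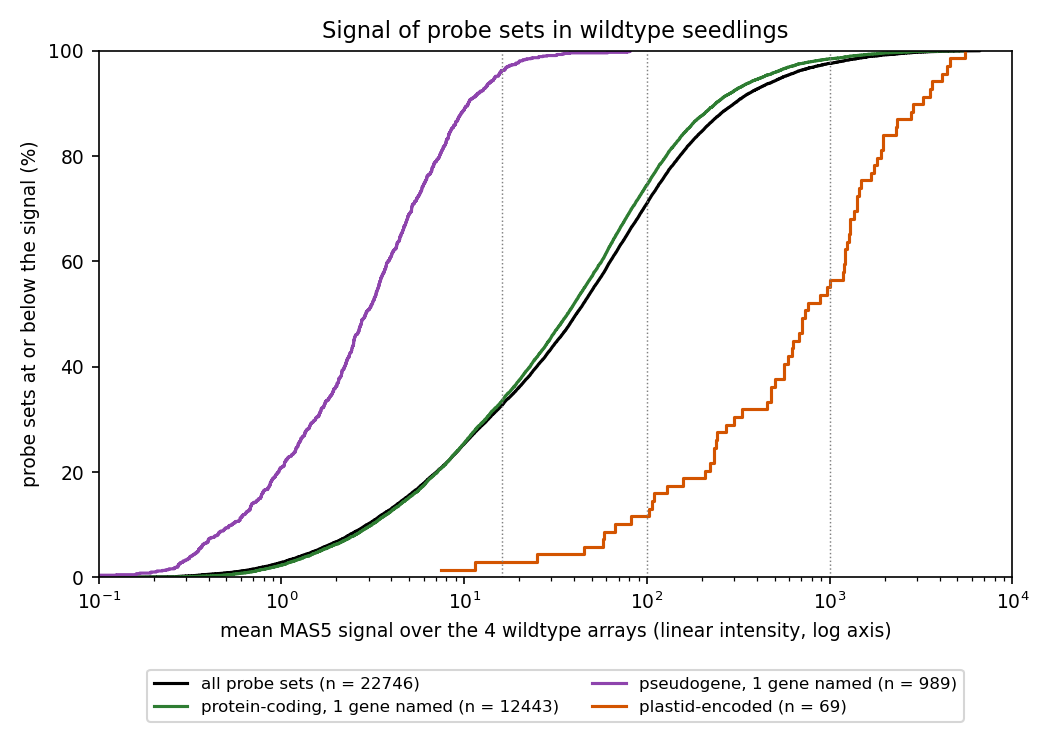
Cumulative share of probe sets (y axis, percent) at or below a mean MAS5 signal over the 4 wildtype arrays (x axis, linear intensity on a log axis), for all 22746 probe sets, protein-coding genes, pseudogenes and plastid-encoded genes. Dotted lines mark 16, 100 and 1000. The pseudogene curve lies almost wholly left of 16 (96.3%), the curve of protein-coding genes has its median at 36.7, and that of the plastid-encoded genes has its median at 735.

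The top 1% of probe sets, 227 with a mean of at least 1783, held 20.1%, 19.7%, 21.3% and 19.9% of the summed signal on replicates 1 to 4. The next probe set below that limit had a mean of 1764. Of the 227, 152 were in each array's own top 1%, and their median coefficient of variation (CV, SD as a percentage of the mean) over the arrays was 14.1% against 28.3% for all probe sets. A single gene was named for 73 of them, 15 of which are plastid-encoded, several genes for 14, and none for 140. The 4 brightest probe sets of all have no gene name, with means of 6628 ± 278, 6264 ± 302, 6204 ± 1430 and 6085 ± 1237 (SD, n = 4). The single-gene probe sets thus cover 32.2% of the top 1%, and no statement is made on what the unnamed ones encode.

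Among the 25 named genes with the highest mean signal, 9 were plastid-encoded, 10 were nuclear genes with a symbol and 6 carry a locus number only. The brightest was atpB, the beta subunit of the plastid ATP synthase, with 5111, 5032, 6038 and 5838 on replicates 1 to 4 (mean 5505 ± 508, SD, n = 4). The epsilon subunit atpE followed at 4538 ± 344. RCA, rubisco activase, which frees the active sites of the carbon-fixing enzyme, gave 4407, 4346, 5026 and 3882. All 3 were high on every array, with CVs of 9.22%, 7.58% and 10.6%. Outside photosynthesis, PYK10, a beta-glucosidase stored in endoplasmic reticulum bodies of roots and seedlings, reached 3923 ± 522. GAPC2, a cytosolic glyceraldehyde-3-phosphate dehydrogenase of glycolysis, reached 3272 ± 154. SAMDC, S-adenosylmethionine decarboxylase of polyamine synthesis, reached 3038 ± 700, with 3623 and 3640 on replicates 1 and 2 but 2619 and 2270 on replicates 3 and 4. CCL spread most within this group, with 1841, 1805, 4440 and 3162 and a CV of 44.7%. The locus-only genes were AT2G45180 (3856 ± 513), AT5G20290 (2858 ± 432), AT1G78040 (2833 ± 200), AT1G09310 (2800 ± 200), AT1G51400 (2787 ± 715) and AT1G13930 (2742 ± 913).

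Some bright probe sets report several genes whose sequences they share, so their signal cannot be divided among them. The brightest covers AT1G07940, AT1G07930, AT1G07920 and AT5G60390 and had a mean of 4982 ± 879 (SD, n = 4). Duplicated plastid genes for ribosomal proteins followed, rpl2 at 3375 ± 157 and rpl23 at 2340 ± 125, both with CVs near 5% (4.65% and 5.36%). The probe set shared by KIN2 and KIN1, a pair of cold-induced genes, gave 1453, 1332, 1275 and 4157 on replicates 1 to 4. Replicate 4 was the high one.

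The nuclear genes of light harvesting and the photosystems were bright almost throughout. Of 8 measured, 7 had means of at least 1000 on all arrays, and their median was 2891 against 30.6 over all genes. PSAE-1, a stromal subunit of photosystem I, gave 4785, 4302, 4259 and 3498 on replicates 1 to 4 (4211 ± 532, SD, n = 4). PSAN, a lumenal subunit of the same photosystem, was steadier at 2575, with a CV of 3.52%. Of the photosystem II proteins PSBY had a mean of 3412 ± 602, PSBW 2735 and the assembly factor PSB27 2081 ± 124. The minor antenna protein of photosystem II known as CP29 is encoded by 3 genes that stood far apart in signal. LHCB4.1 gave 4296, 3723, 4736 and 3647, and LHCB4.2 gave 3496, 3320, 3796 and 1574. LHCB4.3 gave 60.8, 41.1, 46.6 and 57.9. The first member was high on every array, the second was lower on replicate 4 than on the others, and the third stayed between 16 and 100 throughout.

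Carbon fixation was represented by 4 of the 21 Calvin cycle genes looked for. Besides RCA these were PRK, phosphoribulokinase, at 2665 ± 351, SBPASE, sedoheptulose bisphosphatase, at 1947 ± 732, and AT1G56190 at 592 ± 102 (SD, n = 4). SBPASE gave 2702, 2436, 1208 and 1444, so that replicates 1 and 2 lay above replicates 3 and 4. The nuclear gamma subunit of the plastid ATP synthase, ATPC1, gave 3023, 3135, 3114 and 3250, with a CV of 2.98%.

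The plastid-encoded genes as a class gave much brighter signals than nuclear genes. Of 69 measured, 31 had means of at least 1000, 30 lay from 100 to 1000, 6 from 16 to 100 and 2 under 16, and the median was 735. Nuclear probe sets had a median of 30.2, and 162 of 13367 reached 1000. The plastid class was less steady, with 44 of 69 (63.8%) in the same band on all arrays and a median CV of 31.5%, against 74.0% and 30.2% for nuclear probe sets. The median CV of all probe sets with a mean of at least 100 was 19.8%, which is the closer comparison for a class in which 61 of 69 genes lay above that level.

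By complex, the ATP synthase had the highest median of the groups, 2322 over 6 genes. Its alpha subunit atpA gave 2871, 3371, 3199 and 3500. The b subunit atpF reached 1409 ± 295 and the ring subunit atpH 1273 ± 382, while atpI, the a subunit, read only 82.2 ± 14.2 (SD, n = 4). The subunits of 1 complex, in part from a shared transcript, thus ranged from 82.2 to 5505, and the probes' own efficiency is included in that range.

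Photosystem I genes had a median of 1736 over 5. The reaction-centre subunits psaB and psaA reached 3526 ± 357 and 1736 ± 143, with CVs of 10.1% and 8.23%. The small subunit psaJ gave 2381, 2273, 3249 and 3566, psaI gave 1769, 1844, 1063 and 948, and psaC, which carries iron-sulfur clusters, gave 769, 848, 433 and 456. The first of these was higher on replicates 3 and 4, and the others were higher on replicates 1 and 2.

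Photosystem II genes had a median of 762 over 15. The low-molecular-mass subunit psbM was brightest at 4219, 3121, 5990 and 4147, and psbL was steadiest, with 326, 353, 337 and 312. The D1 reaction-centre gene psbA, whose protein is renewed continually in the light, gave 44.2, 835, 619 and 501. The core antenna genes psbB and psbC gave 188, 790, 472 and 468, and 287, 776, 768 and 991. The D2 gene psbD gave 498, 674, 274 and 372. Replicate 1 was the lowest for psbA, psbB and psbC but not for psbD. The large subunit of rubisco, rbcL, was also lowest on replicate 1, at 81.5 against 226, 263 and 315. Its mean of 221 ± 100 (SD, n = 4) placed it in the band from 100 to 1000. The labelling primer is not given, so how fully plastid RNAs were labelled is unknown. The bands of rbcL, psbA and the other plastid-encoded genes therefore order signals and not amounts of RNA.

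The cytochrome b6f genes fell into a bright and a dim set. Cytochrome b6 itself, petB, gave 4015, 4165, 4200 and 4022, and with a CV of 2.33% was among the 10 steadiest genes above a mean of 100. Cytochrome f, petA, reached 1182 ± 445 and petL 707 ± 335. The others lay under 100, with petG at 66.8 ± 27.2, petN at 57.9 ± 32.5 and petD, which encodes subunit IV, at 25.1 ± 11.5 (SD, n = 4).

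The NDH complex, which returns electrons from stromal donors to the plastoquinone pool, ranged from ndhI at 3641 ± 486 to ndhF at 7.44 ± 4.61 (SD, n = 4), the only plastid-encoded gene near background on all arrays. Genes of the plastid ribosome had a median of 679 over 15, led by rps4, with 3319, 3340, 1265 and 1388, and by rpl33 at 1955 ± 437. The ribosomal gene rps14 gave 19.0, 19.4, 1.01 and 6.64, below all others of its group on every array. Subunits of the plastid RNA polymerase were moderate, from rpoC1 at 621 ± 303 to rpoB at 45.2 ± 20.7. Of the remaining genes, ccsA, needed to attach haem to c-type cytochromes, was bright and steady with 2795, 2694, 2753 and 2855. The protease subunit clpP reached 2309 ± 411, the intron maturase matK 1903 ± 198 and accD, a subunit of the plastid acetyl-CoA carboxylase, 589 ± 234.

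**Figure D2:**
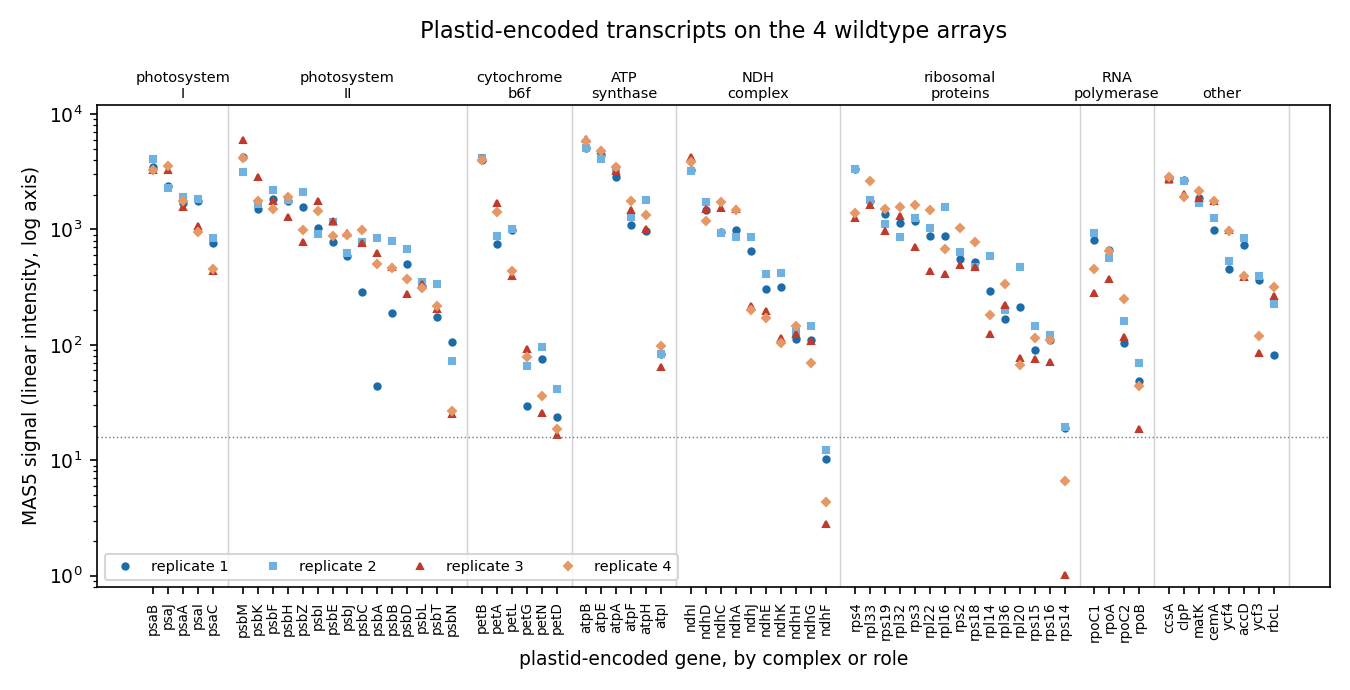
MAS5 signal (y axis, linear intensity on a log axis) of 69 plastid-encoded genes on the 4 wildtype arrays, 1 symbol per array, grouped by complex or role (x axis) and ordered by mean within a group. The dotted line marks 16. Most genes sit between 100 and 6038, petB and ccsA show 4 nearly coinciding points, psbA has replicate 1 at 44.2 far below the others, and ndhF and rps14 lie lowest.

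The other organelle gave a different picture, and how fully its RNAs were labelled is likewise unknown. The 16 mitochondrion-encoded genes with a probe set had a median of 14.2, and 8 lay under 16. The brightest was ccb382, a gene of cytochrome c maturation, with 202, 208, 80.1 and 125 (mean 154 ± 61.8, SD, n = 4). The respiratory complex I gene nad4 had a mean of 93.7 ± 52.7, and cox1 of cytochrome oxidase had a mean of 47.7. The ccb382 signal was higher on replicates 1 and 2.

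The measured cytoskeletal, histone and cell division genes lay mostly in the middle bands. Of 9 tubulin and actin genes, 7 lay from 100 to 1000. TUA6, an alpha-tubulin, was brightest at 1353 ± 297, and the beta-tubulins TUB5, TUB9, TUB6, TUB7 and TUB1 had means of 528, 469, 443, 299 and 170. ACT12, an actin known from pollen and other reproductive tissue, was near background at 4.94 ± 4.76 (SD, n = 4). Of 7 histone genes 6 had means from 100 to 1000, from HTB4, an H2B gene, at 376 ± 123 to the linker histone HIS1-3 at 138 ± 60.7. The centromeric histone HTR12, loaded in dividing cells, lay lower at 23.2 ± 4.04. Of 20 cell division genes looked for 3 were measured, all of them mitotic Aurora kinases. AUR1, AUR2 and AUR3 had means of 100.1, 61.9 and 29.7, and no other part of cell division was assessed by that list. RPN12a, a subunit of the proteasome lid, was very steady with 436, 416, 431 and 416.

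Markers of organs and cell types, drawn from lists written by locus, were measured for some types only, and there for a part of each list. Root markers were present: besides PYK10, AT4G30170 gave 445 ± 156, AT5G17820 365 ± 50.9, AT5G66390 147 ± 37.1 and AT3G49960 54.7 ± 8.77 (SD, n = 4). Both root hair expansins were seen in the band from 16 to 100, EXPA18 at 69.7 ± 22.9 and EXPA7 at 59.1 ± 15.2. In the stomatal lineage, the peptide gene STOMAGEN, which raises stomatal number from the leaf mesophyll, reached 170 ± 52.0. The transcription factors that act in that lineage were lower: FMA gave 32.5, 33.3, 33.4 and 29.4, SPCH 14.0, 24.1, 26.3 and 34.0, and MUTE stayed under 16 on all arrays, at 3.18 ± 1.89. The trichome and root hair regulator TRY was near background at 6.85 ± 4.57. Of the 11 genes of the meristem list 2 were measured. AN reached 134 ± 26.6, but whether its signal comes from meristem cells was not assessed. CLV3, made by a few cells of the shoot apex, was near background at 1.08 ± 0.787. Such a reading can come from few cells, from low RNA per cell or from weak probes, and these cannot be told apart here.

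The few measured markers of other stages were mostly at the low end. Of 19 genes of the seed storage and late embryo list 2 were measured. Both were near background, AT1G03890 at 3.55 ± 4.32 and AT3G22490 at 1.77 ± 1.96 (SD, n = 4). Of 15 pollen and anther genes looked for 4 were measured. Near background were 3 of the 4, among them SPL (SPOROCYTELESS), which starts sporocyte formation, at 1.30 ± 0.630. The exception was AT5G20400, with 45.0, 51.1, 76.7 and 78.3. None of the 12 floral organ identity genes, 12 vascular genes and 11 cuticle genes looked for had a probe set naming it alone, so those tissues were not assessed.

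Gene families recognised by a shared symbol, with at least 8 measured genes each, gave 22 families with 292 genes that are reported here. Of these genes 91 had a mean under 16, 120 lay from 16 to 100, 78 from 100 to 1000 and 3 at 1000 or more. The shares of all genes in these bands were 38.1%, 38.2%, 22.2% and 1.45%. Family medians ran from 3.95 to 529. In 4 families no gene was near background, in 2 more than 50% of genes were, against 30.7% of all genes, and 5 had a median above 100.

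The families with the highest medians belong to basic metabolism, autophagy, secretion and detoxification. Aldehyde dehydrogenases (ALDH), which oxidise reactive aldehydes, had a median of 529 over 8 genes, with 7 of them from 100 to 1000. ALDH11A3 was brightest with a mean of 729, and ALDH22A1 was dimmest with 80.2. Autophagy genes (ATG) had a median of 158, none of the 8 was near background, and ATG8F, a ubiquitin-like protein of autophagosome membranes, led at 1053. The SEC genes, mostly subunits of the exocyst that tethers secretory vesicles, had a median of 139, from SEC22 at 254 to SEC1B at 16.4. Tau-class glutathione transferases (GSTU), detoxifying enzymes, had a median of 116 with GSTU20 at 834, giving 1002, 844, 423 and 1066 on replicates 1 to 4. GSTU20 was lowest on replicate 3. Ubiquitin-specific proteases (UBP) were low but evenly so, all 12 between 31.2 and 164, with a median CV of 13.6%.

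Families of cell wall, transport and signalling proteins each held both bright and dim genes. In expansins (EXPA), which loosen walls, EXPA4 led at 254 while EXPA21 and EXPA24 read 1.37 and 1.06. Among xyloglucan endotransglucosylases (XTH), XTH16 and XTH32 had means of 295 and 294 and XTH26 3.50. In the wider list of expansins and such enzymes EXGT-A3 was brightest, with 914, 930, 921 and 700. The sugar transporters that carry a SWEET symbol had a median of 21.2 over 14 genes. Among these 14, SWEET11, which exports sucrose from leaf cells for phloem loading, held 45.5% of the summed signal at a mean of 634. SAG29, a family member under another symbol that is described further below, is not counted in these values. In tetraspanins (TET) 8 of 15 genes (53.3%) lay under 16, against 38.1% of all genes, while TET8 read 515. The signalling peptide genes RALFL33, RALFL34 and RALFL22 gave means of 465, 464 and 365, whereas 4 of the 11 measured RALFL genes (36.4%) were near background, against 30.7% of all genes.

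Families of specialised metabolism and defence ranged widely in signal among their members. Of 51 UDP glycosyltransferases 20 (39.2%) lay under 16 and 12 (23.5%) from 100 to 1000, close to the 38.1% and 22.2% of all genes, with UGT88A1 highest at 539 ± 154 (SD, n = 4). Of 23 cytochromes P450 13 (56.5%) lay under 16, and CYP71B6 was the only one above 100, at 227 ± 28.6. Beta-glucosidases (BGLU) ranged from BGLU44 at 581 to BGLU32 at 1.53. Of the peroxidases, PRXR1 gave 1755, 1704, 3046 and 3299, and AT5G64120 gave 692, 672, 1945 and 1312, both higher on replicates 3 and 4, whereas AT3G50990 read 2.79. Of the cysteine-rich defensin-like genes LCR69 reached 1888 ± 1127 and LCR68 1021 ± 355, while the other 6 members of the LCR family were near background on all arrays. The jasmonate-responsive defensin PDF1.2 was low, at 11.9 ± 6.37.

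Of 7 WRKY factors, ZAP1 and WRKY20 reached 108 ± 19.9 and 106 ± 12.3. Of 7 bHLH factors, ILR3, a regulator of iron balance, was brightest at 368 ± 67.4, and the related bHLH115 gave 222, 195, 230 and 220. No value was tested between families, and families with few probe sets naming a single gene are represented by a part of their members.

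**Figure D3:**
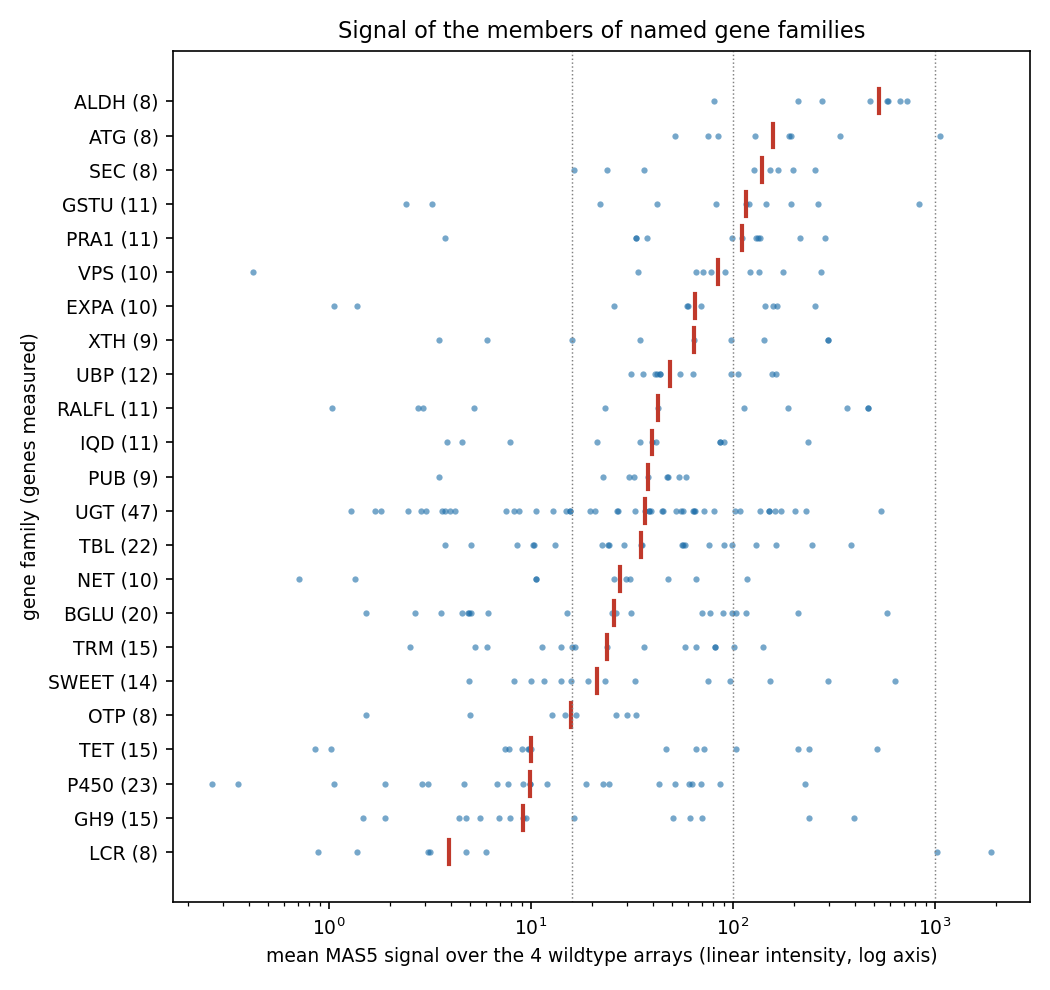
Mean MAS5 signal over the 4 wildtype arrays (x axis, linear intensity on a log axis) of each measured gene (points) in 22 symbol families and in the cytochromes P450, ordered by family median (red bar), with the number of genes in brackets. Dotted lines mark 16, 100 and 1000. ALDH sits highest with a median of 529, the P450 genes, TET, GH9, OTP and LCR have medians under 16, where order is not read, and LCR has 2 genes above 1000 apart from the rest.

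Gene length, a property the bands did not use, differed between them. Among nuclear protein-coding genes the median length in the TAIR10.1 annotation was 1621 bases for 4090 genes under 16, 2399 for those from 16 to 100, 2280 for those from 100 to 1000, and 1680 for the 162 at 1000 or more. Over all 12224 genes it was 2112. Both the dimmest and the brightest bands thus held shorter genes than the middle ones, as a description without a test.

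Stability over the 4 arrays depended on the level and on the measure. The median CV was 59.5% for probe sets with a mean under 16, 22.8% from 16 to 100, 20.0% from 100 to 1000 and 17.6% at 1000 or more. The median SD of log2(signal + 16), where the offset dampens dim signals, did not fall with level. It was 0.195, 0.236, 0.265 and 0.255 in the same bands. Of the 6591 probe sets with a mean of at least 100, 943 (14.3%) had a CV under 10%, 407 (6.18%) had a CV over 50%, and 5162 (78.3%) stayed within 2-fold from the lowest to the highest array. The steadiest named gene was AT4G25900, with 246, 242, 245 and 239 and a CV of 1.25%. AT3G58610 gave 1978, 1945, 1907 and 1936. SDH2-2, an iron-sulfur subunit of succinate dehydrogenase in mitochondria, gave 183, 190, 189 and 188. GME, an epimerase of ascorbate synthesis, gave 764, 764, 772 and 797, and OEP16-3, of the outer envelope pore protein family, gave 688, 722, 696 and 697. No order of arrays was shared by these genes. The 10 steadiest also included AT2G02400, AT4G29960, AT3G44330, AT2G20930 and petB.

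Genes in common use as references for quantitative PCR were steadier than most, with exceptions. Of 19 looked for, 8 were measured, and their median CV was 12.2% against 19.8% over named genes with a mean of at least 100. GAPC2 gave 3330, 3321, 3392 and 3045 with a CV of 4.72%, and only 1.96% of such genes were steadier. AT4G34270 and AT2G28390 had CVs of 6.77% and 9.23%, and PEX4 10.2%. AT5G46630 and AT4G26410 had CVs of 14.2% and 15.0%. TUB6 gave 297, 321, 684 and 469 with a CV of 40.2%, and AT4G33380 gave 91.9, 85.4, 165 and 199 with a CV of 41.3%. For both, replicates 3 and 4 lay above replicates 1 and 2, and 88.7% and 89.8% of genes at such levels were steadier.

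Both COR15 genes, which respond to cold, were among the 10 most variable above a mean of 100. COR15B, which encodes a protein that protects chloroplast membranes during freezing, had the highest CV among them. It gave 63.5, 58.3, 133 and 1433, with a CV of 160%. Its neighbour in the family, COR15A, gave 255, 248, 74.9 and 1260. Replicate 4 was far above the others in both, as it was for the KIN2 and KIN1 probe set. The dehydrins COR47 and LTI30 did not follow that array: COR47 gave 1279, 1157, 2242 and 1725, and LTI30 gave 450, 466, 648 and 661. AT4G30650 gave 135, 131, 644 and 1737, AT2G43550 69.9, 75.1, 197 and 663, and AT5G62360 9.80, 1.81, 133 and 361. In these 3 replicate 4 was the highest, replicate 3 came next, and replicates 1 and 2 lay below both. AT1G19530 had its high value on replicate 3, with 21.5, 31.2, 508 and 89.2.

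**Figure D4:**
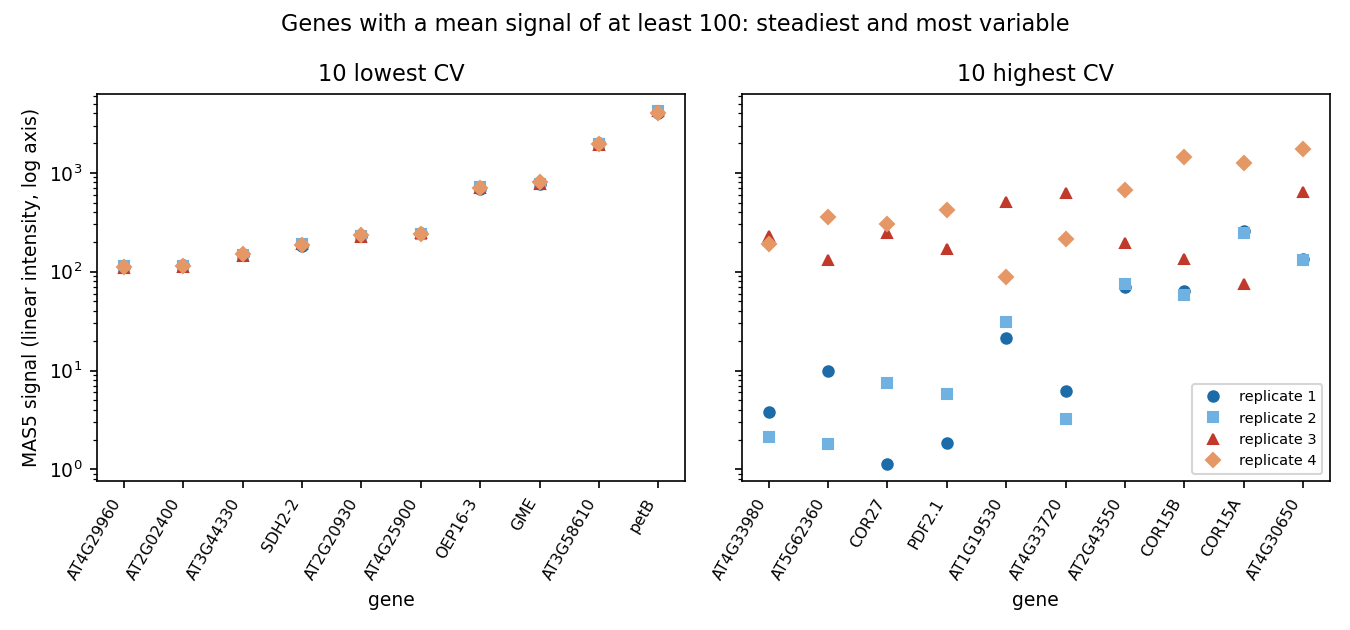
MAS5 signal (y axis, linear intensity on a log axis) on the 4 wildtype arrays, 1 symbol per array, for the 10 genes with the lowest CV (left) and the 10 with the highest (right) among genes with a mean of at least 100. Points coincide on the left, where CVs run from 1.25% to 2.33%, while on the right the arrays lie far apart, with CVs from 112% to 160% and with COR15A and COR15B high on replicate 4 alone.

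Several genes stood out on 1 array while the other arrays lay within 0.5 of each other on the log2 scale, a listing chosen after the values were seen. PPDK, pyruvate orthophosphate dikinase, was low on replicate 4, with 262, 286, 360 and 58.0. AT3G28220 was likewise low there, with 465, 455, 483 and 118. On replicate 3, AT5G57655 was high, with 140, 148, 910 and 201, and ECS1 was low, with 1635, 1755, 542 and 1486. CHIL, a chalcone isomerase-like protein of flavonoid synthesis, was also low there, with 151, 153, 47.8 and 114. Replicate 2 was high for XTH16, with 265, 499, 227 and 187, and for SCPL34, with 323, 614, 283 and 316. On replicate 1 the low genes were rbcL, psbC and UGT85A2, the last with 113, 231, 241 and 225.

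The arrays did not scatter evenly but fell into 2 close pairs. Over all probe sets, log2(signal + 16) correlated at 0.985 between replicates 1 and 2 and at 0.974 between replicates 3 and 4, and at 0.949 to 0.957 across the pairs. Probe sets at least 2-fold apart numbered 71 (0.312%) between replicates 1 and 2, 412 (1.81%) between replicates 3 and 4, and 977 to 1137 (4.30% to 5.00%) across pairs. These are correlations across probe sets, which are not independent, and the offset of 16 dampens dim signals. The manufacturer's poly-A controls, Bacillus RNAs that can be added before labelling, separated the arrays in the same way. Probe sets of the dap control read from 0.178 to 6.69 on replicates 1 and 2 and from 39.9 to 135 on replicates 3 and 4, while those of trpn lay between 0.177 and 4.43 on all 4. The ratio of 3′ to 5′ signal, a sign of RNA or labelling quality, was 1.24 to 1.99 for actin, 0.835 to 0.918 for GAPDH and 1.20 to 1.76 for ubiquitin. On replicates 1 to 4 the ubiquitin ratio was 1.67, 1.76, 1.29 and 1.20, lower on replicates 3 and 4, and the actin ratio was 1.24, 1.58, 1.99 and 1.68, higher there. These ratios depend on the control probe sets used. A further ubiquitin pair read 2011, 2270, 3597 and 3273 at the 3′ end. At the 5′ end it read 963, 909, 1128 and 1153, so its ratio was higher on replicates 3 and 4. A further actin pair read 861, 1007, 1222 and 1365 against 142, 130, 87.9 and 106, a far larger ratio. In a further GAPDH pair the 3′ signal was above the 5′ signal on every array. The cause of the split was not tested.

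**Figure D5:**
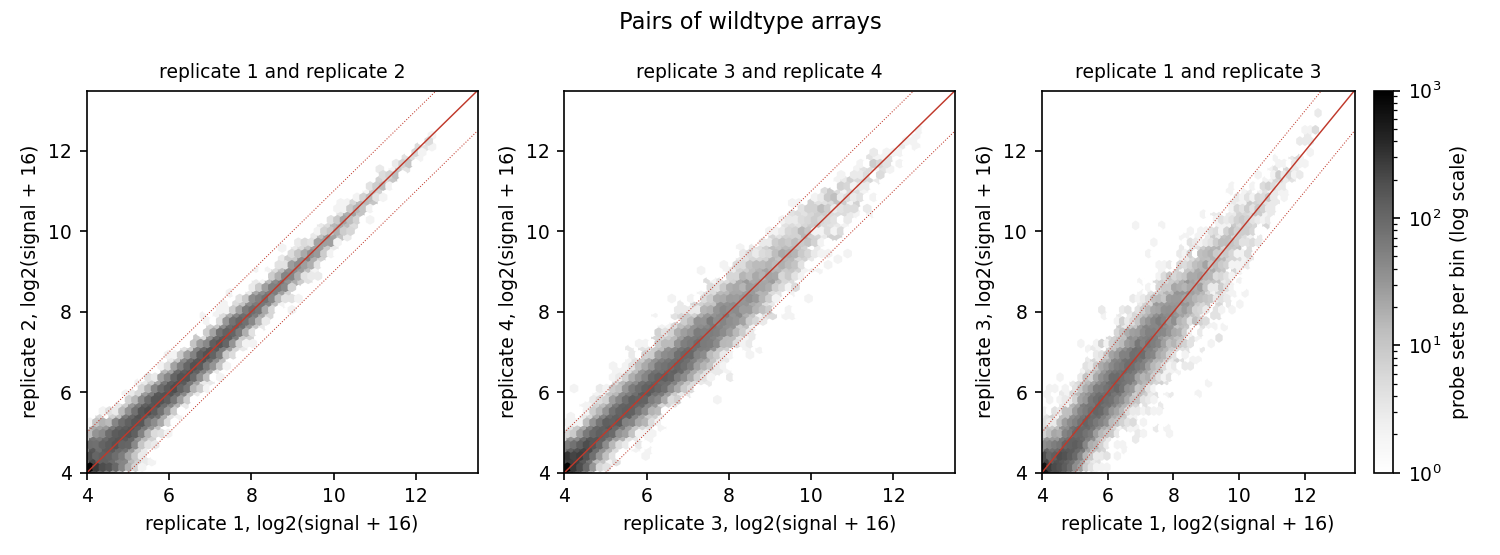
Log2(signal + 16) of all 22746 probe sets on pairs of wildtype arrays: replicate 2 against replicate 1, replicate 4 against replicate 3, and replicate 3 against replicate 1, with shading for the number of probe sets per bin on a log scale. The solid line marks equal signal and the dotted lines a 2-fold difference. The cloud is narrowest for replicates 1 and 2 (0.312% at least 2-fold apart) and widest for replicates 1 and 3 (5.00%).

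The arrays with poly-A control signal (replicates 3 and 4) were set against those without (replicates 1 and 2) in a limma fit over all probe sets. The same signals had already shown these pairs, so the p-values restate that closeness gene by gene and are no independent evidence of a split. At a Benjamini-Hochberg adjusted p under 0.05, 88 probe sets (0.387%) were higher and 136 (0.598%) lower on replicates 3 and 4, together 0.985% of those tested. Of these, 53 and 66 name a single gene. The calls needed both replicates 1 and 2: without replicate 1, and also without replicate 2, no probe set passed in either direction, although 3395 and 3449 had an unadjusted p under 0.05. Without replicate 3 the counts were 141 higher and 204 lower, and without replicate 4 they were 107 and 124. Leaving out 1 array puts a lone array in its pair, which is then assumed to vary like the other pair. If both arrays of a pair came from 1 RNA, these p-values would measure technical spread alone.

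Of the 3 measured genes of the clock list 2 were higher on replicates 3 and 4, and of 4 measured cold and dehydration genes none passed in either direction. Of all probe sets 0.985% passed, so the absence of a call among 4 genes says little. COR27, a regulator at the junction of clock and cold response, gave 1.14, 7.52, 245 and 302, a difference of 3.84 ± 0.227 (log2 scale, SE) with an adjusted p of 0.0219 in the limma fit. AT4G33980 gave 3.85, 2.15, 229 and 192, with a difference of 3.57 and an adjusted p of 0.0206. For a called gene, pairs that lie apart follow from the call. The third gene, GI (GIGANTEA), a clock and flowering regulator, gave 89.8, 82.1, 426 and 151 and did not pass. The largest difference was that of AT4G33720, with 6.18, 3.23, 627 and 215, or 4.22 ± 0.484, with an adjusted p of 0.0410 in the limma fit. That call was lost with an offset of 64 (adjusted p of 0.0723) and without a variance trend (adjusted p of 0.0511). The defensin PDF2.1 gave 1.85, 5.83, 171 and 421, or 3.86 ± 0.418, with an adjusted p of 0.0379 that became 0.0689 with an offset of 64. Further genes that passed were CHL, a lipocalin of the chloroplast, with 89.8, 118, 527 and 594, the peroxidase Prx37 with 29.3, 34.8, 272 and 182, BGLU44 with 217, 247, 897 and 965, and LCR69 with 804, 1028, 2857 and 2865. TUB5 also passed, at a difference of 1.18.

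Lower on replicates 3 and 4 was above all SAG29, a senescence-associated sugar transporter of the SWEET family, with 467, 497, 36.0 and 7.31, a difference of -3.84 ± 0.387 (log2 scale, SE) and an adjusted p of 0.0366 in the limma fit. The thionin THI2.2, an antimicrobial peptide, gave 1415, 1044, 159 and 197, or -2.67 ± 0.214. AT5G48490 gave 2101, 2078, 359 and 261, and AT2G16005 gave 530, 567, 56.9 and 70.6. These genes were chosen for their difference between the pairs, so the pairs lie apart by that choice. AT5G48490 and THI2.2 stayed above 100 on all 4 arrays. AT3G15670 gave 86.6, 63.5, 0.383 and 0.593 and lay far below 16 on replicates 3 and 4.

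Of the 69 plastid-encoded genes, 5 were lower on replicates 3 and 4 and none higher. They were ndhJ, with 650, 852, 217 and 201, ndhK, with 318, 423, 114 and 103, ycf3, a photosystem I assembly factor, with 368, 396, 84.6 and 119, rps4 and petL. The adjusted p-values in the limma fit ran from 0.0378 for ndhJ to 0.0482 for rps4, close to the threshold. The rest did not pass, and the median difference over all 69 was -0.11 on the log2 scale, against -0.06 over all probe sets. No gene of the light harvesting, Calvin cycle, histone or reference lists passed. These lists hold 8, 4, 7 and 8 genes, and 0.985% of all probe sets passed in either direction. The absence of a call in lists so short says little about them.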

How the data were processed

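Per the submitters' processing notes, the authors deposited MAS5 signals without a version, an intensity on a linear scale for each probe set and array. Their scaling left a trimmed mean close to 100 on each array. Detection calls, scaling target and labelling primer are not given in the sources used here. No column of per-sample values without a sample was found (0). Values were summarised in Python 3.11.15 with pandas 2.3.3 and drawn with matplotlib 3.10.9. Spread is the SD, the CV of the linear signal, or the SD of log2(signal + 16). For the arrays with and without poly-A control signal, log2(signal + 16) was fitted without a covariate by limma 3.58.1 (lmFit, then eBayes with trended variance) under R 4.3.3. P-values were Benjamini-Hochberg adjusted over 22746 probe sets. The log2 offset understates differences of dim probe sets. The procedure was tested on simulated data: it recovered most changed probe sets when the spread was drawn from limma's moderated variances, with some false calls, and none when it was drawn from each probe set's own variance, so the number of calls depends on how even that spread is. The number of arrays limits the precision.

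Of the 13513 single-gene probe sets, 13436 matched RefSeq genes of assembly TAIR10.1, used for symbols, gene type and length, and 77 kept the annotation's name.

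The named genes were the 25 with the highest mean, the 10 with the lowest and the 10 with the highest CV at a mean of at least 100, the 10 largest called differences in each direction, the 3 brightest and 2 dimmest measured members of each list, the measured reference genes and the 4 brightest unlisted probe sets. Other genes were chosen after their values were seen, as were the symbol families and the pseudogene class. The members, lists and the split by control signal were chosen with earlier results of these data known. The symbol CYP mixes cyclophilins with cytochromes P450, so a P450 list replaced it. Some other families are not reported here. The aquaporin, MYB, receptor kinase and lipid transfer protein lists had no measured member. The cytosolic ribosomal, NAC, F-box and pentatricopeptide lists held 1, 1, 1 and 2 genes, and the defence list held 4, of which AT4G16260 gave the highest mean at 803 ± 590 (SD, n = 4). A planned description of promoters and protein lengths was not run, because no sequence was used here. Alternatives changed the offset, the scaling, the filter on low signal, the limits of the bands, the variance model, the probe set per gene, and the arrays used.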

Additional observations from a re-analysis of the deposited data

Results flagged for a closer look

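Of 223 values looked at with 4 arrays each, 11 had a highest or lowest array farther from the others than Dixon's 95% limit allows. Chance flags about 5% of groups that were not chosen by their values. Some of the values here were chosen for a high CV or for the split between pairs, and list medians share genes with them. The share found was therefore not set against that rate. The number in brackets is the gap to the nearest array divided by the whole range.

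Replicate 4 set 5 of them apart. The cold genes COR15B (0.945) and COR15A (0.848) read 1433 and 1260 there, against at most 133 and 255 on the others. The median of the cold and dehydration list (0.962), which holds both genes, was 352, 357, 390 and 1350 on replicates 1 to 4. EXGT-A3 (0.929) was lowest on that array, with 700 against 914 to 930, and PPR596 (0.869) was highest, with 137 against 79.6 to 87.1.

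Replicate 3 set apart AT1G19530 (0.861), at 508 against 21.5 to 89.2, and the median of the ALDH family (0.922), with 399, 412, 601 and 415. Replicate 2 set apart NAC014 (0.929), at 74.1 against 51.5 to 53.1, and the seed gene AT1G03890 (0.847), at 9.95 against 0.514 to 1.96, all below 16. Replicate 1 set apart UGT85A2 (0.869), at 113 against 225 to 241, and CEG (0.982), at 7.12 against 0.108 to 0.238, also below 16. Values under 16 overlap those of pseudogenes, so these 2 differences were not read further.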

How the results depend on the processing

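No paired analysis was possible because the only arrays compared are replicates 1 to 4 of 1 group, and no replicate number occurs on both sides. The median SD of log2(signal + 16) over probe sets was 0.23. It was 0.39 with an offset of 1, 0.12 with an offset of 64, 0.22 after quantile normalization and 0.25 for probe sets with a mean of at least 16, and without 1 array it ran from 0.21 to 0.22. The number of probe sets near background, 5853, was 3153 with a limit of 8 and 8923 with a limit of 32. The number high on all arrays, 384, was 928 with a limit of 500 and 122 with a limit of 2000. Of the top 1%, at least 215 of 227 stayed in it under each alternative run. For the arrays with control signal, 88 higher and 136 lower probe sets became 159 and 212 with an offset of 1, 51 and 87 with an offset of 64, and 434 and 608 when only probe sets with a mean of at least 16 were tested. Other scalings and the fit without a variance trend gave 82 to 113 higher and 118 to 151 lower. Without 1 array, the counts ran from 0 to 141 higher and from 0 to 204 lower, and the 0 counts came without replicate 1 or 2. Of 220 checks of the 20 named genes of that comparison, 170 kept direction and call and 50 kept direction without the call. Medians of gene lists moved beyond the spread between arrays in 2 of 343 checks, both without replicate 4: to 9.23 from 11.9 for defensin-like genes and to 234 from 247 for reference genes. Leaving out 1 of 4 arrays can seldom move a median beyond the spread between those arrays, so this count is no measure of robustness. That spread was itself wide for short lists: without 1 array the median moved by over 1.5 times to 84.7 from 139 for the clock list (without replicate 4), to 82.2 from 130 for peroxidases (without replicate 3), to 40.8 for XTH (without replicate 2) and to 1.83 from 3.05 for pollen and anther genes (without replicate 1). Signals under 16 overlap those of pseudogenes.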
